A study of Mus musculus with 45 samples.

Results

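The miR-10, miR-99 and miR-100 family was followed in small RNA-seq data of mouse alveolar macrophages (AM), as 5 mature miRNAs: mmu-mir-10a-5p, mmu-mir-10b-5p, mmu-mir-99a-5p, mmu-mir-99b-5p and mmu-mir-100-5p. They are 5 of the 476 miRNAs listed in any of the 6 deposited tables, and 4 of them are among the 206 listed in all 6. They were chosen by name, with results of ozone (O3) against filtered air (FA) in these mice already known, so the differences between O3 and FA are given as a description. The comparisons of sexes, of genotypes and of responses between them were tested.

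The AM came from bronchoalveolar lavage of 45 mice aged 12 weeks (21 males and 24 females), each of which gave 1 library. The SP-A2 mice carried the human surfactant protein variant SP-A2 (1A0), the co-ex mice carried human SP-A1 and SP-A2 (6A2/1A0), and the KO mice carried no SP-A gene. Both humanized lines were bred onto SP-A KO mice of the C57BL/6J strain, so all 3 genotypes lacked mouse SP-A and none was wild type. Mice breathed FA or O3 for 3 h, and AM were taken after 18 h of recovery, with 4 mice in each of the 12 groups of genotype, sex and exposure except SP-A2 males (3 after FA, 3 after O3) and co-ex males after O3 (3). The study's description gives 3 co-ex males per condition, whereas the labels put 4 in FA, and the labels were followed. The promoter that drives the human genes is not given in the sources used here, and the tables hold no SP-A transcript against which the genotype labels could be checked.

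A miRNA guides Argonaute proteins to messenger RNAs that pair with its seed, the bases near its 5′ end, and the bound messenger is repressed. The miR-10 and miR-99/100 branches are among the oldest animal miRNAs. The miR-10 genes lie within the Hox clusters and are known for repressing Hox genes, while miR-99 and miR-100 are known for repressing mTOR and the IGF1 receptor. Members are found in many tissues, among them mesenchymal and epithelial ones, and the cluster that encodes miR-99b is also known from cells of the myeloid lineage.

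The mature sequences are shown because the members differ by so few bases that their reads are easily confused, and because the branches differ inside the seed. All 5 names matched a RefSeq entry (GRCm38.p6). Each is written 5′ to 3′ with the seed, bases 2 to 8, in capitals.
mmu-mir-10a-5p: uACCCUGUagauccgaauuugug
mmu-mir-10b-5p: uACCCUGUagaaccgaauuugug
mmu-mir-99a-5p: aACCCGUAgauccgaucuugug
mmu-mir-100-5p: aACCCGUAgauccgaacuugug
mmu-mir-99b-5p: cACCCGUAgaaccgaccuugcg

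The members fall into 2 seed groups. The seed ACCCUGU is held by miR-10a-5p and miR-10b-5p, and by no other mouse mature miRNA of RefSeq. The seed ACCCGUA is held by miR-99a-5p, miR-99b-5p and miR-100-5p, again by no other entry. Counted from 1 at the 5′ end, miR-10a-5p and miR-10b-5p differ by 1 substitution (U12A), and miR-99a-5p and miR-100-5p also by 1 (U16A). miR-99b-5p stands apart from miR-99a-5p by 4 substitutions (A1C, U11A, U16C and U21C). Across the branches, miR-10a-5p and miR-100-5p share a run of 11 bases, guagauccgaa. It starts inside the seed, at position 7 of the former and position 6 of the latter, and runs on past it.

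The members come from 5 loci on different chromosomes (coordinates of the mature arm, plus strand, GRCm38). miR-10a-5p lies at chr11:96317186-96317208, between Hox genes, 993 bp from Hoxb4. miR-10b-5p lies at chr2:74726074-74726096, in introns of transcripts of Hoxd3 and Hoxd4. miR-99a-5p lies at chr16:77598940-77598961, in an intron of the noncoding host Mir99ahg, whose cluster of Mir99a, Mirlet7c-1 and Mir125b-2 spans 47408 bp. miR-99b-5p lies at chr17:17830194-17830215, in an intron of the protein-coding gene Spaca6, with Mirlet7e and Mir125a within 692 bp. miR-100-5p lies at chr9:41531437-41531458, in introns of the noncoding 3110039I08Rik and Gm49317 and opposite an exon of Gm48742, in a cluster of 50578 bp with Mirlet7a-2 and Mir125b-1. The authors' genome build is not given in the sources used here, so these positions are those of the annotation and not of their alignment.

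Each table gives a normalized value for every miRNA and mouse of a genotype and sex, which is its read number scaled by a single factor per mouse. Reads on listed miRNAs numbered between 137965 and 2884013 per mouse (median 766213). A value of 0 in 1 mouse allows up to 3 reads, a limit for counting error only. In bulk RNA of this kind, fewer cells of a type and less RNA per cell cannot be told apart.

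Within the family, miR-99b-5p held most of the reads and the other 4 members held the rest. After FA, miR-99b-5p took between 76.7% and 99.6% of the family reads of a mouse (median 91.8%, 23 mice). After O3 it took between 55.8% and 93.4% (median 77.9%, 22 mice), so the ranges overlapped while the median was lower. The share of miR-99a-5p had a median of 4.21% after FA and 10.9% after O3, that of miR-10a-5p 2.01% and 7.82%, and that of miR-100-5p 0.372% and 2.70%. The whole family held a median of 1.24% of the listed reads after FA and 1.56% after O3. The mature forms are 22 or 23 bases long, so that length hardly enters these shares, but they are shares of reads and not of molecules.

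**Figure D1:**
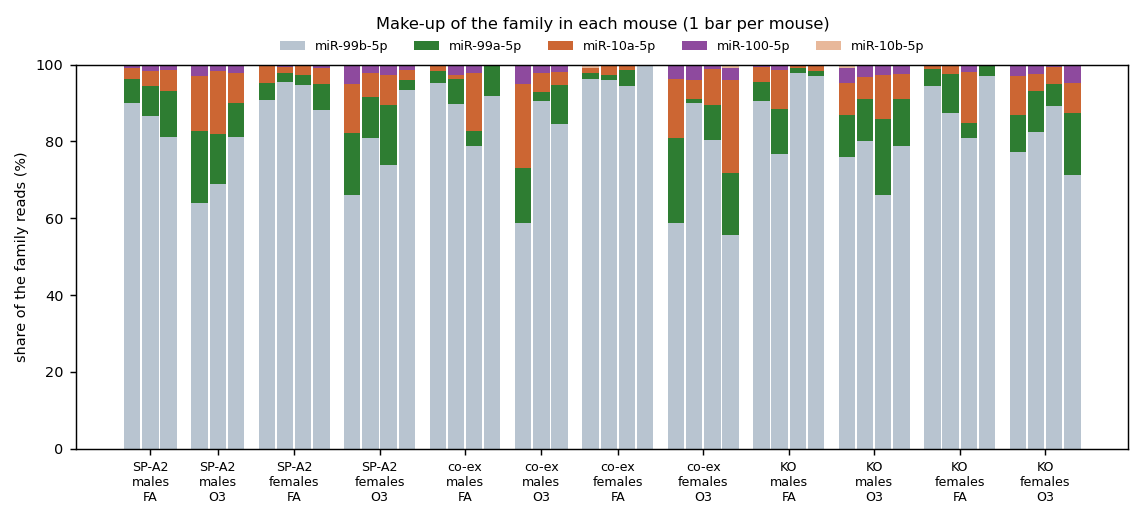
Share of the family reads (%, y axis) taken by each member, with 1 stacked bar for each of the 45 mice, by genotype, sex and exposure (x axis). The grey part, miR-99b-5p, ran from 76.7% to 99.6% after FA and from 55.8% to 93.4% after O3.

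By rank among the miRNAs of a mouse, miR-99b-5p was between place 8 and place 35 in the 45 mice. The median rank of miR-99a-5p was 91 after FA and 57 after O3, that of miR-10a-5p 115 and 70.5, and that of miR-100-5p 189 and 105.5. miR-10b-5p was near the bottom, with a median rank of 284 after FA and 236 after O3 in the 4 tables that list it.

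miR-10a-5p, the Hoxb member, was higher after O3 than after FA by the mean in the 6 tables. In SP-A2 males its normalized values were 291, 467 and 509.5 after FA and 2231, 1911 and 1427 after O3. Among the SP-A2 females they were 334, 209.6, 302 and 518 after FA and 1769.8, 845, 1217 and 441 after O3. The males did not overlap between exposures, whereas the lowest O3 female lay below the highest FA female.

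In co-ex females the values of miR-10a-5p were 179, 296, 154 and 84.4 after FA and 935, 679, 1253 and 2455 after O3. In co-ex males they were 218, 114, 1110.5 and 0 after FA and 2327, 453 and 448.96 after O3. Every O3 female was above every FA female, but in males an FA mouse at 1110.5 lay above 2 of the 3 O3 mice and another FA mouse was at 0, which allows up to 1.85. In KO males the values were 485, 626, 57.2 and 121 after FA and 839, 766, 2098 and 817 after O3, without overlap. In KO females they were 106, 99.9, 867 and 0 after FA and 716, 511, 622 and 674 after O3, so that the O3 mice were close together and the FA mice ranged on both sides of them.

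The ratio of mean values of miR-10a-5p, O3 over FA, ran from 2.35 in KO females to 7.46 in co-ex females. On the log2(value + 1) scale, where a mouse at 0 weighs heavily, the difference among SP-A2 mice was 2.15 (SE 0.39) for males and 1.55 (SE 0.47) for females. Among co-ex mice it was 3.42 (SE 2.06) for males and 2.86 (SE 0.77) for females, and among KO mice 2.25 (SE 0.78) and 3.50 (SE 1.49). The SE above 1 belong to the 2 tables with an FA mouse at 0, KO females and co-ex males. There the ratios of means, 2.35 and 2.98, are smaller changes than those log2 differences. The other arm, miR-10a-3p, was listed in the SP-A2 tables only, at a mean of 0.581 ± 1.01 (SD, n = 3) after FA and 13.6 ± 9.44 (n = 3) after O3 in males.

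miR-10b-5p, the Hoxd member with the same seed, was scarce and was listed in 4 tables. In SP-A2 males its normalized values were 6.97, 20.4 and 18.8 after FA and 34.3, 14.6 and 42.4 after O3. Among the SP-A2 females it was at 0 in 3 FA mice and at 32.8 in the fourth, and the O3 mice were at 23.0, 0, 12.3 and 47.2. In KO males it was at 18.1, 1.21, 0 and 0.927 after FA and at 81.5, 0, 3.37 and 0 after O3. The exposures overlapped in each of these tables, and in co-ex females a single FA mouse at 119 and a single O3 mouse at 78.9 made up nearly the whole signal. There the ratio of means was 0.704 while the log2 difference was 0.56 (SE 1.76), so the 2 measures differ in sign.

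The log2 difference of miR-10b-5p lay between 0.54 (SE 1.53) in KO males and 2.21 (SE 1.59) in SP-A2 females. For SP-A2 females and for co-ex females, a miRNA was listed only when at least 4 mice were above 0. With 3 FA mice at 0 in each of these tables, miR-10b-5p was listed there through its O3 mice. Nothing is read from its differences in these females. Its reads were a median of 0.193% of those of miR-10a-5p after FA and 0.765% after O3. In co-ex females FA replicate 1 they were 66.4%, with 119 against 179 in normalized value. How the authors' counting placed reads with the base that separates the pair is not given in the sources used here, and its part in these low values was not tested.

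miR-99a-5p, which is encoded with let-7c and miR-125b, was the second most abundant member by its median share. In SP-A2 males its normalized values were 612, 894 and 1111 after FA and 2969, 1540.3 and 1625 after O3. Among the SP-A2 females they were 357, 279, 275 and 847 after FA and 2189, 1426, 2410.5 and 473 after O3. The males were apart, and in the females O3 replicate 4, which also had the lowest miR-10a-5p value of its group, lay within the FA range.

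In co-ex males the values of miR-99a-5p were 422, 620.3, 286 and 1015 after FA and 1537, 217 and 1407 after O3. In co-ex females they were 219, 146.5, 481 and 0 after FA and 1339.9, 157, 1225 and 1641 after O3. In co-ex males 1 O3 mouse thus lay below every FA mouse, in co-ex females 1 O3 mouse lay within the FA range, and the other O3 mice of both tables lay above the FA mice. In KO males the values were 587, 743, 154 and 157 after FA and 1103, 1463, 3596 and 1607 after O3. In KO females they were 582, 508, 250.5 and 189 after FA and 674, 1257, 841 and 1424 after O3, and neither KO table overlapped between exposures.

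The ratio of means of miR-99a-5p ran from 1.80 (co-ex males) up to 5.16 (co-ex females). The log2 difference among SP-A2 mice was 1.203 (SE 0.41) for males and 1.81 (SE 0.55) for females. Among co-ex mice it was 0.57 (SE 0.95) for males and 3.69 (SE 1.51) for females, and among KO mice 2.44 (SE 0.64) and 1.54 (SE 0.62).

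miR-100-5p differs from miR-99a-5p by the single base at position 16 and had the largest ratio of means among the members in 5 of the 6 tables, the exception being SP-A2 males, where miR-10a-5p had 4.39 and miR-100-5p 2.65. In SP-A2 males its normalized values were 69.7, 171 and 119 after FA and 427, 189 and 336 after O3. Among the SP-A2 females they were 29.1, 61.4, 25.2 and 67.7 after FA and 661, 309, 413 and 201 after O3. In KO males they were 41.9, 93.3, 36.8 and 44.5 after FA and 408, 449.4, 505 and 328 after O3. These 3 tables had no overlap, with the exposures closest together in SP-A2 males, at 171 and 189.

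In co-ex females miR-100-5p was listed at 0 in FA replicates 1, 3 and 4, which allows up to 4.62, 3.66 and 3.73, and at 48.8 in FA replicate 2, and the O3 mice were at 227, 569.6, 163 and 332. In co-ex males it was at 14.5, 263, 151 and 3.09 after FA and at 543, 199.3 and 277 after O3. In KO females it was at 48.7, 14.4, 125 and 0 after FA and at 200.3, 300.1, 87.7 and 423 after O3. The co-ex females did not overlap, while in each of the other 2 tables the lowest O3 mouse lay below the highest FA mouse.

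The ratio of means of miR-100-5p was 2.65 for SP-A2 males and 8.64 for their females, 7.81 for KO males and 5.37 for their females, and 3.15 for co-ex males. The co-ex females had 26.4, over an FA mean of 12.2 ± 24.4 (SD, n = 4) that rests on 1 mouse. Every miRNA listed for co-ex females was above 0 in at least 4 mice. With 3 FA mice at 0, miR-100-5p was thus listed there through its O3 mice. The log2 difference there was 6.77 (SE 2.22), the largest of the 290 miRNAs of that table, and nothing is read from that rank. This difference was 9.26 with a pseudocount of 0.1 and 4.27 with a pseudocount of 10. On recovered reads it was 4.52 with edgeR and 4.56 with DESeq2. In the other tables it was between 1.41 (SE 0.55) in SP-A2 males and 3.63 (SE 1.68) in KO females. As a percent of the reads on its near-identical partner miR-99a-5p, miR-100-5p had a median of 9.91% after FA and 21.2% after O3. The highest share was 362% in co-ex females O3 replicate 2, with 569.6 against 157 in normalized value. As for the miR-10 pair, how the counting placed reads with the separating base is not given in the sources used here, and its part in these values was not tested.

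miR-99b-5p, encoded within Spaca6 beside let-7e and miR-125a, was the abundant member and overlapped between FA and O3 in the 6 tables. In SP-A2 males its normalized values were 8849, 10156 and 7569 after FA and 10002, 8106 and 14910.1 after O3. In KO males they were 10752, 4822, 10878 and 10592 after FA and 7660.5, 10885, 12102 and 10184 after O3. Neither table had a group set apart from the other. The SP-A2 females were at 7087, 11586, 11071 and 10874 after FA and at 9061, 10942, 11417 and 16377 after O3. The KO females were at 12636, 4351, 5281 and 6024 after FA and at 5372, 9778, 12718 and 6280.2 after O3. The co-ex males were at 13248, 8857, 5729.9 and 11338 after FA and at 6283, 8381 and 11634 after O3. Again the ranges of FA and O3 overlapped in each table. The ratio of means was 1.24 and 1.10 in SP-A2 and KO males, 1.18 in SP-A2 females, 1.21 in KO females and 0.895 in co-ex males.

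Among the co-ex females miR-99b-5p was at 12919, 11948, 10779 and 19390.0 after FA and at 3583, 12689.8, 10857 and 5678 after O3. That was the lowest ratio of the 6, at 0.596, with a log2 difference of -0.88 (SE 0.48). In the same table miR-10a-5p, miR-99a-5p and miR-100-5p had ratios of 7.46, 5.16 and 26.4. The other arm of the hairpin, miR-99b-3p, was listed in the 6 tables and was lower after O3 by the log2 difference in 5 of them, from -2.59 (SE 1.82) in co-ex females to 0.14 (SE 0.54) in SP-A2 males. It took a median of 2.48% of the reads of both arms after FA and 1.82% after O3.

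**Figure D2:**
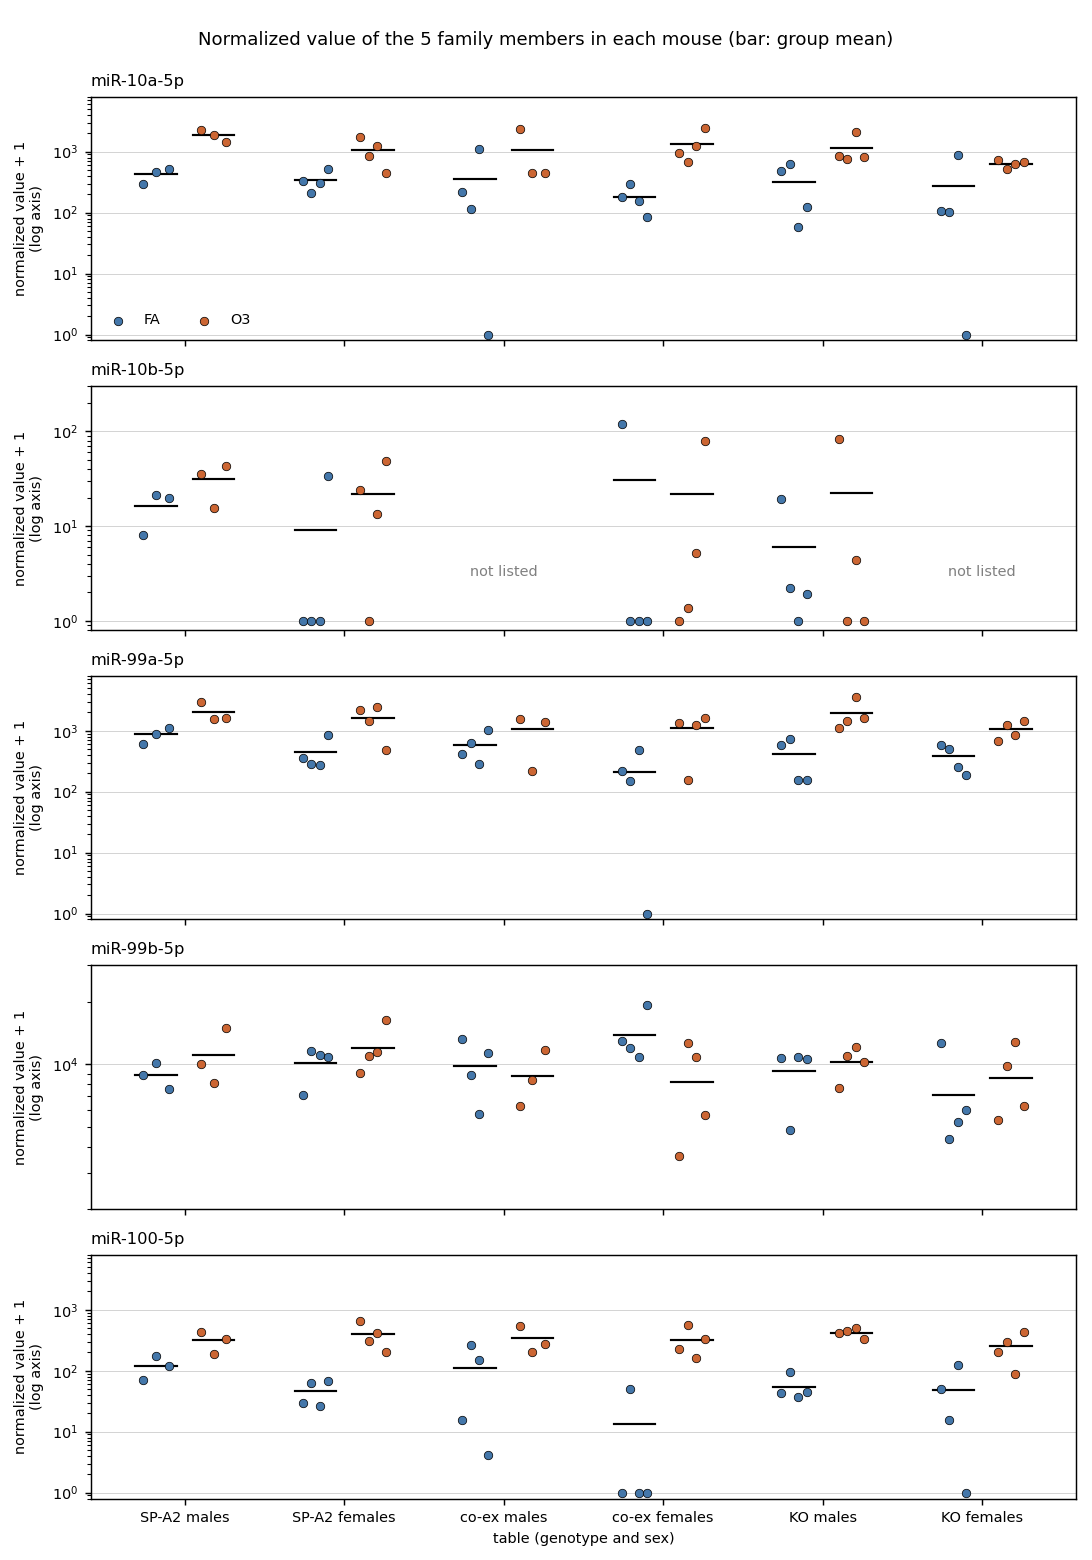
Normalized value + 1 (log axis) of each member (panels) in each mouse, by table (x axis), with FA in blue, O3 in orange and a bar at the group mean. Points at the bottom of a panel are mice listed at 0, as in 3 of the 4 co-ex females after FA for miR-100-5p, while miR-99b-5p lay between 3583 and 19390.0 in the 45 mice.

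Over the 28 pairs of member and table, 26 had a log2 difference above 0, and the exceptions were miR-99b-5p in the 2 co-ex tables. Of all listed miRNAs, the share above 0 ran from 43.0% in KO males to 67.1% in co-ex males. miR-100-5p in co-ex females, and miR-10b-5p in SP-A2 and co-ex females, were at 0 in 3 FA mice and listed through their O3 mice. Nothing is read from the count of pairs. For SP-A2 males the median difference of the members was 1.203 and that of all listed miRNAs 0.17, and for SP-A2 females these were 1.81 and 0.18. For co-ex males they were 1.76 and 0.64, and for co-ex females 2.86 and 0.31. For KO males they were 2.25 and -0.29, and for KO females 2.52 and 0.45. In KO males the 5 members were thus above 0 in a table where 43.0% of all miRNAs were. Among them, miR-99b-5p (0.20, SE 0.36) and miR-10b-5p (0.54, SE 1.53) overlapped between the exposures.

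**Figure D3:**
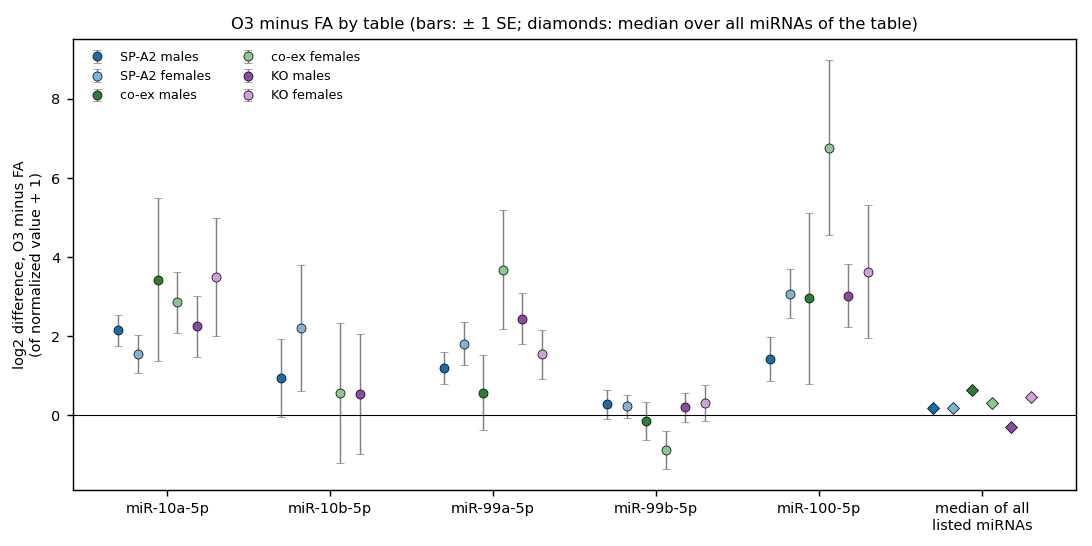
Log2 difference of normalized value + 1, O3 minus FA (y axis), for each member by table (colours), with bars of ± 1 SE, and the median over all miRNAs of each table as diamonds at the right. miR-10a-5p, miR-99a-5p and miR-100-5p lie above 0 in the 6 tables, and miR-99b-5p lies between -0.88 and 0.32.

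With limma on log2(value + 1) and the Benjamini-Hochberg adjustment over all miRNAs of a table, the counts at an FDR of 0.1 were as follows, and nothing is read from them since the members were chosen with this contrast known. In SP-A2 males 1 member of 5 passed (miR-10a-5p), against 0.67% of all miRNAs, and 3 members did not overlap with O3 above FA, against 12.7%. In SP-A2 females 1 of 5 passed (miR-100-5p), against 1.07%, and 1 did not overlap, against 3.49%. In co-ex females 1 of 5 passed (miR-10a-5p), against 1.38%, and 2 did not overlap, against 5.86%.

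In KO males 2 of 5 members passed (miR-99a-5p and miR-100-5p), against 5.18% of all miRNAs, and 3 did not overlap, against 6.1%. In co-ex males 0 of 4 passed in limma, where 0% of all miRNAs did, 0 members had an unadjusted p below 0.05, and 0 did not overlap, against 6.41%. In KO females 0 of 4 passed, again with 0% of all miRNAs, while 3 members had an unadjusted p below 0.05 and 1 did not overlap, against 3.14%. edgeR's quasi-likelihood test and DESeq2 on recovered reads also called 0 members in these last 2 tables. Of all miRNAs there edgeR called 0, and DESeq2 called 2 of 234 in co-ex males and 4 of 287 in KO females. With edgeR the calls were lost for KO males (0 members, 16 of 328 miRNAs) and for co-ex females (0 members, 0 of 290 miRNAs). For the SP-A2 mice edgeR passed 1 member in males, among 5 of 448 miRNAs, and 1 in females, among 2 of 373. DESeq2 called 2 members for KO males (46 of 328 miRNAs), 1 for co-ex females (12 of 290), 1 for SP-A2 males (50 of 448) and 3 for SP-A2 females (27 of 373). Single mice decided the counts above 0. Leaving out each mouse in turn gave 0 to 3 for KO males, 0 to 3 for SP-A2 females, 0 to 2 for SP-A2 males and 0 to 1 for co-ex females, and 3 among SP-A2 females was the count without O3 replicate 4.

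The neighbours of miR-99a and miR-100 in their clusters were set beside them. miR-125b-5p, which is made from both clusters and cannot be assigned to either by its sequence, was higher after O3 by the log2 difference in the 6 tables, from 0.63 (SE 0.41) in SP-A2 males to 2.63 (SE 0.59) in co-ex females, and passed the FDR of 0.1 in 3. let-7c-5p, encoded beside miR-99a and also elsewhere, was higher in the 6 tables, from 0.33 (SE 0.59) in KO females to 2.26 (SE 0.50) in co-ex females, and passed in 1. let-7a-5p, encoded beside miR-100 and at other loci, lay between -1.02 and 0.50 and was above 0 in 2 tables.

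The arm miR-125b-1-3p, made only from the hairpin beside miR-100 and named here after its values were seen, was listed in 5 tables and was above 0 in the 5. In SP-A2 females it was listed at 0 in the 4 FA mice and was at a mean of 63.3 ± 38.5 (SD, n = 4) after O3. Every miRNA listed for SP-A2 females was above 0 in at least 4 mice, so this arm was listed there through its O3 mice. Nothing is read from that difference. The matching arm of the other cluster, miR-125b-2-3p, was listed in SP-A2 males only.

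The neighbours of miR-99b had values more like those of miR-99b-5p. let-7e-5p had a log2 difference between -1.11 (SE 0.36) in KO males and 0.11 (SE 0.39) in KO females, and miR-125a-5p between -0.66 (SE 0.41) in co-ex males and 0.11 (SE 0.36) in SP-A2 males. The 3p arm miR-125a-3p lay between -1.13 and 0.59. Each of these 3 was above 0 in 2 of 6 tables, and none passed the FDR of 0.1 in any table. Of the 206 miRNAs fitted over all tables, let-7e-5p was lower after O3 by 0.59 on the log2 scale (SE 0.15, limma adjusted p = 0.00342) and miR-125a-5p by 0.40 (SE 0.15, adjusted p = 0.0622), whereas miR-99b-5p had a difference of -0.18 (SE 0.17).

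**Figure D4:**
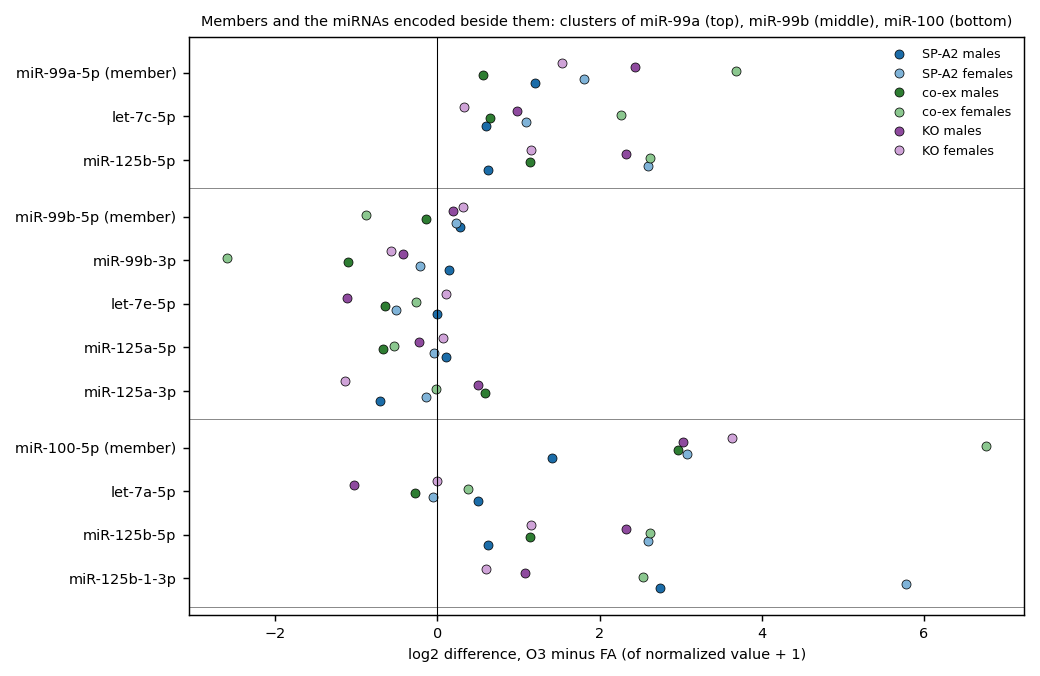
Log2 difference of normalized value + 1, O3 minus FA (x axis), for the miR-99a, miR-99b and miR-100 members and the miRNAs encoded beside them (rows), with 1 point for each table that lists the miRNA. Points of the miR-99b cluster lie on both sides of 0, and miR-99a-5p, miR-100-5p, let-7c-5p and miR-125b-5p lie to the right of 0.

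Each table had its own normalization. Levels were therefore compared between sexes and genotypes on the recovered reads of the 206 shared miRNAs, as log2(CPM + 1) with TMM factors in 1 limma fit of 12 group means. This fit holds 4 members, as miR-10b-5p is not in all tables. On this scale 3 members, miR-10a-5p (2.45, SE 0.57), miR-99a-5p (1.70, SE 0.45) and miR-100-5p (3.33, SE 0.55), passed for O3 against FA averaged over the 6 tables, where 27.2% of all miRNAs did, again as a description. miR-100-5p ran from 0 to 369 CPM over the 23 FA mice (median 54.9) and from 106 to 721 over the 22 O3 mice (median 362). miR-99b-5p ran from 5712 to 20564 CPM (median 12467) and from 3906 to 19058 (median 10418).

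Between the sexes, no member passed the test. After FA, miR-100-5p was at 3.40 to 369 CPM in the 11 males (median 76.5) and at 0 to 154 CPM in the 12 females (median 36.9, 4 females at 0). The male minus female difference, averaged over genotypes, was 2.24 on the log2 scale (95% interval 0.69 to 3.79, limma adjusted p = 0.289), and 0% of all miRNAs passed in that comparison. It was 3.32 with a pseudocount of 0.1, 1.28 with a pseudocount of 10, 1.54 with edgeR and 1.55 with DESeq2. miR-99a-5p was at a median of 769 CPM in males and 364 in females after FA, a difference of 1.26 (0.0025 to 2.52, adjusted p = 0.576). These 2 members had an unadjusted p below 0.05, as had 14 of all 206 miRNAs. edgeR and DESeq2 called 0 members, against 1 and 7 of the 206 miRNAs. The miR-100-5p difference passed without co-ex females FA replicate 2 (2.74) and without co-ex males FA replicate 4 (2.69).

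miR-10a-5p differed between males and females after FA by 0.28 (95% interval -1.32 to 1.88) and miR-99b-5p by -0.19 (-0.66 to 0.28). After O3 the difference was 0.17 (-1.47 to 1.82) for miR-10a-5p, 0.24 (-1.05 to 1.53) for miR-99a-5p, -0.04 (-0.52 to 0.44) for miR-99b-5p and 0.08 (-1.51 to 1.67) for miR-100-5p. limma, edgeR and DESeq2 called 0 members there, 0 had an unadjusted p below 0.05, and 0% of all miRNAs passed in limma. The intervals of miR-10a-5p, miR-99a-5p and miR-100-5p each reach beyond 1 on the log2 scale, and the sign of the miR-99b-5p difference turned in 28 of 52 alternatives.

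Whether the response to O3 differed between the sexes was tested as an interaction. For miR-100-5p the male minus female difference of the responses was -2.16 on the log2 scale (95% interval -4.37 to 0.06, limma adjusted p = 0.993). For miR-99a-5p the difference was -1.02 (-2.82 to 0.78), for miR-10a-5p -0.11 (-2.40 to 2.19) and for miR-99b-5p 0.15 (-0.52 to 0.83). limma, edgeR and DESeq2 called 0 of the 4 members, 0 had an unadjusted p below 0.05, and 0% of all miRNAs passed in limma.

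Between the genotypes after FA, miR-100-5p was the member that passed, and that call rested on the method. It was at 33.2 to 191 CPM in the 7 SP-A2 mice (median 80.1), at 0 to 154 CPM in the 8 KO mice (median 54.5) and at 0 to 369 CPM in the 8 co-ex mice (median 7.87). The 3 ranges overlapped, with 3 co-ex mice and 1 KO mouse at 0. In the moderated F test of limma the adjusted p was 0.0409, with SP-A2 above co-ex by 2.94 on the log2 scale (SE 0.95), SP-A2 above KO by 1.16 (SE 0.95) and co-ex below KO by a difference of -1.77 (SE 0.91). In the same comparison 36.4% of all miRNAs passed, so that 1 member of 4 was no larger share than that background.

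The miR-100-5p call was lost with edgeR (adjusted p = 0.804), with DESeq2 (adjusted p = 0.698), with a pseudocount of 10 (adjusted p = 0.173) and without co-ex males FA replicate 4 (adjusted p = 0.121), a mouse of the group whose labelled number differs from the description, a range of 0.00514 to 0.804 over the alternatives. By sex, the mean log2(CPM + 1) after FA was 6.99 ± 0.66 (SD, n = 3) for SP-A2 males and 5.81 ± 0.67 (n = 4) for SP-A2 females. Co-ex males had 5.43 ± 3.00 (n = 4) and co-ex females 1.49 ± 2.98 (n = 4), while KO males had 6.03 ± 0.51 (n = 4) and KO females 4.44 ± 3.18 (n = 4). The spread was largest in the 3 groups with mice at or near 0.

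The adjusted p for genotype after FA was 0.261 for miR-10a-5p, 0.171 for miR-99a-5p and 0.59 for miR-99b-5p. miR-99a-5p had medians of 671 CPM in SP-A2, 518 in KO and 330.3 in co-ex mice, and miR-10a-5p had medians of 467, 143.4 and 187 CPM. For miR-99a-5p the adjusted p was 0.0404 without co-ex females FA replicate 3. The labels give no sequencing batch, and a batch that followed genotype and sex cannot be told apart from them.

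After O3 the genotypes lay closer together in miR-100-5p, with medians of 392 CPM (SP-A2), 384 CPM (KO) and 256 CPM (co-ex) and no mouse at 0 (limma adjusted p = 0.988). No member passed, the lowest adjusted p being 0.547 for miR-99b-5p, while 8.25% of all miRNAs passed. edgeR and DESeq2 also called 0 members, against 16 and 24 of the 206 miRNAs, and 0 members had an unadjusted p below 0.05. Whether the response to O3 differed among genotypes was tested as an interaction, in which 0 members and 0.485% of all miRNAs passed in limma, 0 members had an unadjusted p below 0.05, and edgeR and DESeq2 called 0. The widest such difference was that of miR-100-5p, whose response in SP-A2 minus that in co-ex was -2.74 (SE 1.37, adjusted p over the 3 genotypes = 0.853).

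**Figure D5:**
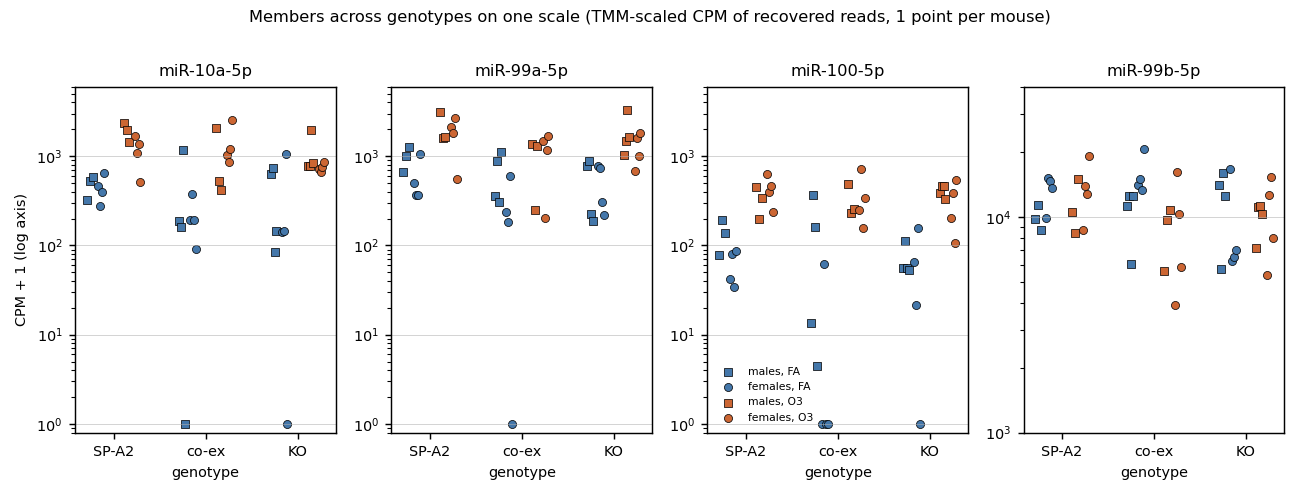
CPM + 1 (log axis) of the 4 members listed in all tables, by genotype (x axis), with 1 point per mouse, squares for males, circles for females, blue for FA and orange for O3. For miR-100-5p the FA mice run from 0 to 369 CPM and the O3 mice from 106 to 721 CPM.

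How the members varied together among mice of 1 group was described by the correlation of deviations from the group means of log2(value + 1), over 45 mice and the 206 shared miRNAs. Mice of a table share its normalization, so these are descriptions. miR-10a-5p and miR-100-5p, from different chromosomes, had r = 0.71, against a median of 0.10 for miR-10a-5p with all others. Their correlation was 0.65 with a pseudocount of 10 and 0.53 by Spearman's measure. In KO females FA replicate 4 both were at 0, and in co-ex males FA replicate 4 miR-10a-5p was at 0 and miR-100-5p at 3.09. The part of these mice in r was not tested. miR-99a-5p had r = 0.18 with miR-10a-5p and 0.15 with miR-100-5p, close to its own median of 0.13. miR-99b-5p was at -0.27 with miR-10a-5p, -0.30 with miR-99a-5p and -0.17 with miR-100-5p.

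The 3 miRNAs most like miR-10a-5p by this measure were miR-182-5p (r = 0.84), miR-142a-5p (0.80) and miR-100-5p. For miR-100-5p they were miR-10a-5p, miR-182-5p (0.64) and miR-183-5p (0.60), and for miR-99a-5p they were miR-143-3p (0.74), miR-34b-3p (0.63) and miR-28a-5p (0.63). For miR-99b-5p they were miR-181a-5p (0.69), miR-501-3p (0.63) and miR-423-3p (0.62). The cluster partner miR-125a-5p was at 0.52 with miR-99b-5p, while miR-125b-5p was at 0.47 with miR-100-5p, 0.27 with miR-99a-5p and 0.69 with miR-10a-5p. With miR-99b-5p, let-7e-5p was at -0.21, miR-125a-3p at -0.19 and the arm miR-99b-3p at -0.03. let-7a-5p was at 0.09 with miR-100-5p. let-7c-5p was at 0.33 with its neighbour miR-99a-5p and at 0.57 with miR-10a-5p. Of the miRNAs nearest to the members, miR-182-5p and miR-183-5p are on the epithelial list used below, miR-143-3p is on the mesenchymal list and miR-142a-5p is on the leukocyte list. With a pseudocount of 10, and with Spearman's correlation, miR-142a-5p and miR-100-5p were no longer among the 3 nearest to miR-10a-5p.

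Markers of cell types were set beside the members, by exposure. Over all listed miRNAs, the share higher after O3 by the log2 difference ran from 43.0% in KO males to 67.1% in co-ex males. The share passing in limma, in either direction, ran from 0% in co-ex males to 5.18% in KO males. miRNAs typical of mesenchymal cells, 8 of 10 listed in at least 1 table, were higher after O3 by the log2 difference in 31 of 31 cases of miRNA and table, with 3 called higher. Their summed reads were between 0.0121% and 0.305% of a mouse's listed reads after FA (median 0.11%) and between 0.169% and 1.21% after O3 (median 0.486%). The list does not hold a member of the family, and miR-214-5p was at 0 in the FA mice of the only table that lists it, SP-A2 males. Every miRNA listed there was above 0 in at least 3 mice, so miR-214-5p was listed through its O3 mice. The part of mesenchymal RNA in the higher values of miR-10a-5p, miR-99a-5p and miR-100-5p was not tested.

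Epithelial miRNAs, 13 of 13 listed in at least 1 table, were higher after O3 in 53 of 65 cases with 0 called by limma, and took between 0.108% and 1.43% of reads after FA (median 0.662%) and between 0.662% and 2.67% after O3 (median 1.26%). The endothelial miR-126a-3p was listed in 3 tables and was at 0 in 6 of 11 FA mice and 1 of 11 O3 mice. After FA its normalized values ran from 0 to 30.6 in SP-A2 females and from 0 to 0.927 in KO males. Every miRNA listed for those mice was above 0 in at least 4 of them, so miR-126a-3p was listed there through its O3 mice. Nothing is read from its differences there. miR-126a-5p was listed in SP-A2 males only, at 0 in the FA mice, so it too was listed through its O3 mice. Their 4 cases were higher after O3, with 1 called higher, and their summed reads reached 0.00364% of a mouse's listed reads after FA and 0.107% after O3. Within groups, the mesenchymal sum had r = 0.57 with miR-99a-5p, 0.28 with miR-10a-5p, 0.09 with miR-100-5p and -0.52 with miR-99b-5p over 45 mice, and the epithelial sum had r = 0.60, 0.42, 0.25 and -0.34. In the same order, the sum of the leukocyte list described below had r = 0.26, -0.22, -0.19 and 0.04. That of the erythroid list had r = 0.22, 0.16, 0.22 and -0.20.

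The leukocyte list, with miR-142a, miR-223 and miR-146b among its 8 miRNAs, was listed in full in each table and took between 0.993% and 24.5% of reads after FA (median 10.6%) and between 1.31% and 22.0% after O3 (median 7.14%). Of its 48 cases 23 were higher after O3, with 2 called lower. Erythroid miRNAs, 4 of 5 listed, took between 0.258% and 37.0% after FA and between 0.136% and 35.8% after O3, and 12 of 21 cases were higher after O3 with 0 called. miRNAs of leukocytes were thus present in every group, but the list does not separate AM from other leukocytes, and red cell miRNAs reached 37.0% of reads in 1 FA mouse.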

How the data were processed

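Small RNA libraries of AM from 45 mice were single-read sequenced. The authors deposited 1 table per genotype and sex, with a normalized signal per mature miRNA and mouse. The tables also hold a p-value, a q-value and a ranking score of the authors' comparison of FA with O3, which were not used. The aligner, mismatch rule and build are not given in the sources used here. Each signal was a whole multiple of a step of its mouse, from which reads were recovered (tolerance 1e-06 steps). Within tables, log2(signal + 1) was fitted with limma 3.58.1 (R 4.3.3) and Benjamini-Hochberg FDR 0.1. Sex, genotype and interactions were tested with limma on TMM log2(CPM + 1) of the 206 shared miRNAs, 12 group means and 40.4 degrees of freedom. Alternatives were edgeR 4.0.16 and DESeq2 1.42.0 on recovered reads, pseudocounts of 0.1 and 10, filters at 10, other scalings, FDR 0.05, a replicate block and each mouse left out. The fits were run on simulated data with large planted changes, as a check of the code. That check does not measure their power or false calls in these mice. The members, lists and tests were chosen with earlier results of these data known. Named miRNAs were the members, their other arms, their cluster neighbours, the 3 most correlated miRNAs per member, and cell type markers. No pair of replicates agreed within sampling noise (lowest chi-square per degree of freedom 53.8 over 63 pairs), and the labels call each sample a mouse.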

Additional observations from a re-analysis of the deposited data

Results flagged for a closer look

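In 12 of 42 groups of 4 mice (1 member in 1 group each), a single mouse lay farther from the other 3 than Dixon's test at the 95% level allows. Chance gives that in about 1 of 20 groups of normally distributed values, but these are skewed values with many at 0, so the rate does not apply to them and 12 is not read as an excess. The values below are normalized values, and a cause was not tested.

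The scarce miR-10b-5p gave 5 of the 12. It was at 119 in co-ex females FA replicate 1 and 78.9 in co-ex females O3 replicate 4, where the other mice were at 0 and between 0 and 4.18. It was at 32.8 in SP-A2 females FA replicate 4 with the others at 0. In KO males it was at 18.1 in FA replicate 1 and 81.5 in O3 replicate 1, with the others no higher than 1.21 and 3.37.

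miR-100-5p was at 93.3 in KO males FA replicate 2, with the others between 36.8 and 44.5, and at 48.8 in co-ex females FA replicate 2, with the others at 0. miR-10a-5p was at 867 in KO females FA replicate 3, with the others no higher than 106, and at 2098 in KO males O3 replicate 3, with the others between 766 and 839. miR-99a-5p was at 847 in SP-A2 females FA replicate 4, with the others between 275 and 357. miR-99b-5p gave the only low mice, at 4822 in KO males FA replicate 2, where the others lay between 10592 and 10878, and at 7087 in SP-A2 females FA replicate 1, where they lay between 10874 and 11586.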

How the results depend on the processing

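Within tables, miR-10a-5p, miR-99a-5p and miR-100-5p kept their direction in 42 of 42 values each under other settings and in 45 of 45 with a mouse left out, whereas miR-10b-5p turned in 2 of 26 and 5 of 30, and miR-99b-5p in 4 of 42 and 3 of 45. Counts of members passing were less stable. In co-ex females the count of 1 became 0 at an FDR of 0.05, with a pseudocount of 0.1, with median-ratio rescaling and with edgeR. In KO males the count of 2 became 0 at an FDR of 0.05 and with edgeR, and 1 with median-ratio rescaling. In SP-A2 females the count of 1 became 3 with DESeq2, which called 27 of 373 miRNAs, and in SP-A2 males the count of 1 became 0 at an FDR of 0.05. With a mouse left out the count was 0 to 1 in co-ex females, 0 to 3 in KO males, 0 to 3 in SP-A2 females and 0 to 2 in SP-A2 males, and 0 in co-ex males and KO females. Over all tables, the genotype count after FA of 1 became 0 with a pseudocount of 10, the low-value filter (which leaves miR-100-5p untested), edgeR and DESeq2, and was 0 to 2 with a mouse left out (0 without co-ex males FA replicate 4, 2 without co-ex females FA replicate 3). The count for sex after FA was 0 to 1 with a mouse left out. The cause was not tested.

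Of 22 pairs of same-numbered FA and O3 mice, 6 had a correlation over 0.1 (-0.14 to 0.27). Pairs with different numbers were not computed for comparison, so these values cannot settle whether replicate numbers pair the mice. The main fits treated the mice as unpaired. With the replicate block, members passing numbered 0 in co-ex females, 1 in KO males, 0 in SP-A2 females and 0 in SP-A2 males. The male minus female difference after O3 under the block was -0.17 for miR-10a-5p (0.17 without it) and -0.14 for miR-100-5p (0.08 without it).

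The sign of other small sex differences also turned. After O3 that of miR-99b-5p was 0.0555 with the low-value filter and 0.056 with DESeq2 size factors, and -0.13 to 0.16 with a mouse left out, and that of miR-100-5p was -0.0509 with edgeR and -0.0607 to 0.29 with a mouse left out. For miR-10a-5p it was -0.40 to 1.07 after FA, and -0.78 to 0.57 for the difference of responses, with a mouse left out. Low reads limit miR-10b-5p and the FA values of miR-100-5p.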
